A study of Homo sapiens with 51 samples.

Results

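Wild-type H1 cells under BMP4 were compared between day 2 and day 1 of differentiation, across the whole table of accessible regions. The comparison used 4 of the 51 libraries of the series, 2 labelled WT day 1 and 2 labelled WT day 2, and all 142087 regions counted under BMP4. No region was chosen for its values, and 142083 passed the filter on low counts and were tested. H1 is an established human embryonic stem cell line, and WT is the unedited line beside 2 edited lines, KO and ΔATG (written DATG here). Which gene was edited is not stated in the labels. The assay was ATAC-seq: a transposase inserts sequencing adapters where DNA is open. Cells were seeded on Matrigel in mTeSR medium on day 0, BMP4 was the inducing factor, and the labels call the product mesoderm. The sources used here give neither the BMP4 dose nor the hour of its addition. The 2 libraries of a day carry the letters a and b, and nothing says that they came from separate cultures. The p-values therefore measure the spread between libraries, which may be technical.

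BMP4 is a secreted ligand of the TGF-beta family. It binds type I and type II receptor kinases, which phosphorylate SMAD1, SMAD5 and SMAD9, and these enter the nucleus with SMAD4. Direct targets include the ID genes, which encode inhibitors of basic helix-loop-helix factors, and the inhibitory SMADs SMAD6 and SMAD7, which feed back on the receptors. In human embryonic stem cells BMP4 moves cells out of pluripotency towards primitive streak and mesoderm, or towards amnion- and trophoblast-like states, depending on WNT, Nodal and FGF signals.

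The promoters below carried called regions in this comparison, and each sequence holds a part of the counted region. That part is 79 bases at SMAD9 and 111 at SMAD6, where the rest of the region lies downstream of the start. VTCN1 had the strongest gain among promoters of the gene lists, SMAD6, SMAD9 and ID3 belong to the BMP pathway, and VRTN lost accessibility. Each sequence is the 250 bases upstream of the RefSeq start on GRCh38.p14, 5′ to 3′ on the strand of the gene, and the capitals mark the bases inside the counted region.
VTCN1, chr1:117210928-117211177, minus strand: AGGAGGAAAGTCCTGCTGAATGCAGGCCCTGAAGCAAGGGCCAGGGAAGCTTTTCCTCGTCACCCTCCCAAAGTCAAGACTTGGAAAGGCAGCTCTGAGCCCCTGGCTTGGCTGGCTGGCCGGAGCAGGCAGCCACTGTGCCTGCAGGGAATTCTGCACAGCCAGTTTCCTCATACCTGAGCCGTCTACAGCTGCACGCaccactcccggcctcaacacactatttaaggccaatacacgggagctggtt
SMAD6, chr15:66701986-66702235, plus strand: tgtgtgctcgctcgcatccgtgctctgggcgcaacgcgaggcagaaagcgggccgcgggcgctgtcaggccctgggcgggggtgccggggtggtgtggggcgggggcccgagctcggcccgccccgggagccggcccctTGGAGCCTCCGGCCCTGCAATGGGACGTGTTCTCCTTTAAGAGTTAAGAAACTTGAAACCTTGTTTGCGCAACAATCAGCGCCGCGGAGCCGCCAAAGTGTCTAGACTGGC
SMAD9, chr13:36920239-36920488, minus strand: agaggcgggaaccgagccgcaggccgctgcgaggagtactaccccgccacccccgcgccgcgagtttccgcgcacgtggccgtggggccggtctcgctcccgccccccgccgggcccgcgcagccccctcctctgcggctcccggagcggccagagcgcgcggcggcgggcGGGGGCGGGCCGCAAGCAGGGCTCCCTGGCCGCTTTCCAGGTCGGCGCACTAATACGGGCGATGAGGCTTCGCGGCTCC
ID3, chr1:23559502-23559751, minus strand: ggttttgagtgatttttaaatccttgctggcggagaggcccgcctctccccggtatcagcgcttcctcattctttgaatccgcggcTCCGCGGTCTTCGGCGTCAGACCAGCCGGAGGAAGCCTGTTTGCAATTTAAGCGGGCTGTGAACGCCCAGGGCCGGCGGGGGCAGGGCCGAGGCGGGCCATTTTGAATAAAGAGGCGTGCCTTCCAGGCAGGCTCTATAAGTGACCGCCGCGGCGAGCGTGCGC
VRTN, chr14:74348221-74348470, plus strand: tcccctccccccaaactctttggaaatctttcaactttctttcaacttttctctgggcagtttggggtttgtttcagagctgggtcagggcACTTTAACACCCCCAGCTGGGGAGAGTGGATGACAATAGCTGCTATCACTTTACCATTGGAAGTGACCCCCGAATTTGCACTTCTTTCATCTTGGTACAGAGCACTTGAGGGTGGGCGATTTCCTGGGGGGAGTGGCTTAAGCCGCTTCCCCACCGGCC

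Between day 1 and day 2, accessibility rose at 8938 regions (6.29% of those tested) and fell at 5718 (4.02%). The called regions changed by a median of 0.81 on the log2 scale where higher and −1.0 where lower, and the median over all tested regions was 0.0012. A region was called at a Benjamini-Hochberg adjusted p under 0.05 in edgeR's quasi-likelihood test, and "rose" and "fell" are used only of such calls. Of the called regions 5944 changed by over 2-fold, 3093 up and 2851 down. Day 1 and day 2 libraries did not overlap at 99.9% of called regions, against 55.0% of all tested regions. The WT libraries held 10668600 and 8963076 counts on day 1 and 6771391 and 5449494 on day 2, so the later day was shallower in both. Leaving out a single library gave 5182 calls without day 1 a, 8685 without day 1 b, 5972 without day 2 a and 5496 without day 2 b. Scaling by total counts turned the split to 6789 higher and 7829 lower (46.4% higher, against 61.0%), with the median of all regions at −0.07.

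Gains were more frequent than losses at gene starts. Of the 36644 tested regions within 1 kb of a RefSeq start, 9.37% rose and 1.37% fell, with a median log2 fold change of 0.15. Inside genes the shares were 5.11% and 4.97%, and between genes 5.22% and 5.23%. Some genes off chromosome 8 had no start on record, so regions at their starts are counted in these classes. Regions covering an end of APLNR, ETV5 or BMP2, for example, were counted between genes. Starts made up 38.4% of the higher regions, 8.76% of the lower regions and 25.8% of all tested regions. The share of all counts that fell at starts moved with the day: it was 36.9% in both WT day 1 libraries and 40.1% and 40.6% on day 2. Its part in the start gains was not tested. After offsets that remove any trend with abundance, an alternative chosen after seeing the data, 4.92% of start regions rose and 1.56% fell, against 4.86% and 3.39% of all regions, so gains were then about as frequent at starts as elsewhere. Leaving out 1 library lowered the higher share at starts to 2.45% (without day 1 a), 5.87% (day 1 b), 3.49% (day 2 a) and 3.88% (day 2 b). Over all regions the shares in these fits were 2.003%, 3.998%, 2.76% and 2.63%.

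The losses were frequent next to the 3′ ends of protein-coding genes, a grouping chosen after the values were seen. Of 5344 regions within 2 kb of a 3′ end and outside starts, 559 fell (10.5%) and 152 rose (2.84%), with a median of −0.15. KO showed 8.08% lower and 2.15% higher there, and DATG 10.3% and 2.02%. With the abundance offsets 9.39% of these regions fell in WT, against 3.39% of all regions. DESeq2 gave 2.49% against 0.522%. When a library was left out the share ran from 3.87% to 6.16%, against 1.23% to 2.11% of all regions. Among the gene lists, examples were DPPA4, a pluripotency-associated gene, and the immediate early transcription factor genes FOS and EGR1.
The DPPA4 region, chr3:109325162-109325362, lay 782 bp outside the gene and held 7.85 and 7.32 CPM on day 1 against 1.04 and 1.99 on day 2. CPM are scaled counts per 1e6 counts of the library. Both day 2 libraries were below both day 1 libraries, and the log2 fold change was −2.36 ± 0.31 (SE, n = 2 per day, adjusted p = 4.334e-08). The FOS region, 1159 bp outside the gene, fell from 2.91 and 3.77 CPM to 0.446 and 0.904 (−2.31 ± 0.47).

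**Figure D1:**
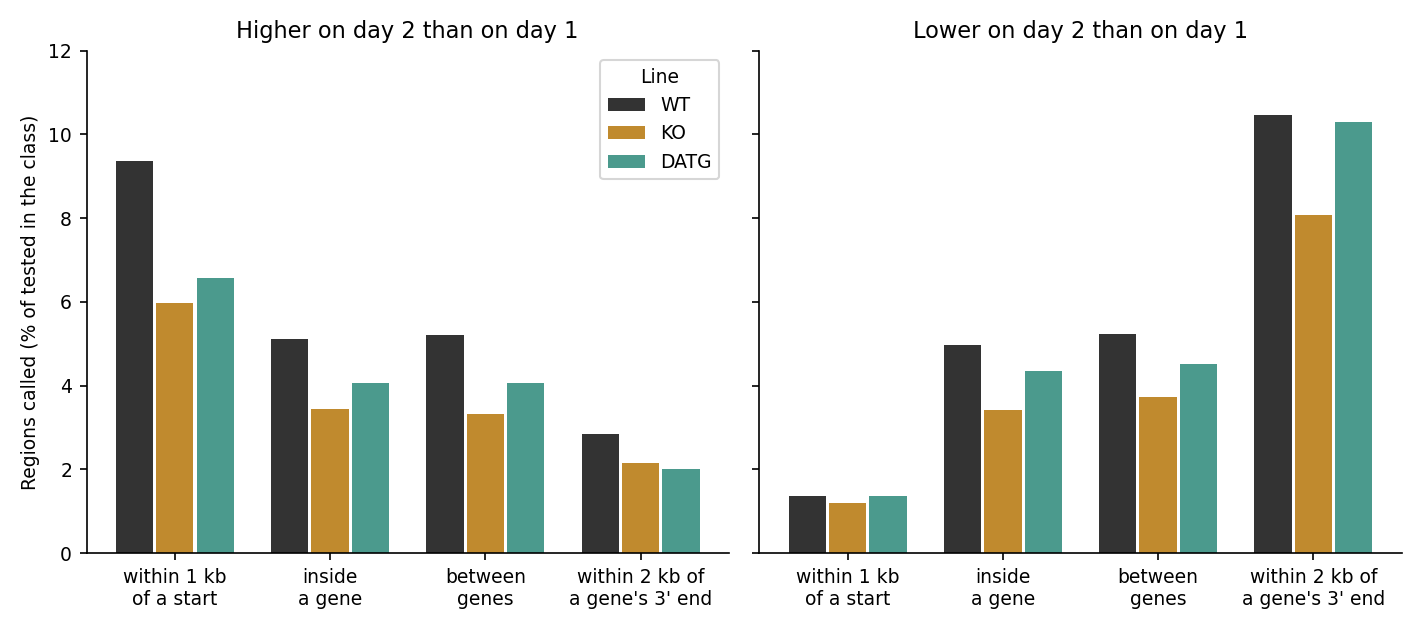
Percent of tested regions called higher (left) or lower (right) on day 2 than on day 1, by position and by line, with bars starting at 0. In WT 9.37% of start regions rose, and 10.5% of regions within 2 kb of a 3′ end fell.

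The next regions named are the 10 largest changes in each direction among called regions of at least median abundance over all libraries, near protein-coding genes and without overlap between days. Some regions of lower abundance changed by more. The 10 gains were low on day 1, at under 3 CPM in each WT library. None of the 10 overlapped a region of the undifferentiated day 0 table, and 1 of them lay at a gene start. The largest was inside JAKMIP1, a gene for a protein that binds microtubules and Janus kinases, at chr4:6182597-6182797. It held 6 and 3 counts on day 1 and 36 and 34 on day 2, which is 0.529 and 0.323 CPM against 5.35 and 6.15 CPM. Both day 2 libraries lay far above both day 1 libraries, with a log2 fold change of 3.66 ± 0.40 (adjusted p = 2.924e-11). A region 39026 bp from HAND1, outside any annotated gene at chr5:154517253-154517453, was the most open of the 10 on day 2. HAND1 encodes a transcription factor of lateral and extraembryonic mesoderm. The region read 2.65 and 2.48 CPM on day 1, then 13.8 and 13.7 CPM on day 2, without overlap (2.42 ± 0.29, adjusted p = 1.851e-07). On day 3 it reached 26.6 and 22.8 CPM, and on day 5 it stood at 18.4 and 19.2 CPM.

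The other gains named here ranged from 2.03 to 2.43 on the log2 scale. A region 1905 bp from CCDC102A rose by 2.43 ± 0.26 and one 8540 bp from DNAAF10, which encodes an assembly factor of axonemal dynein, by 2.39 ± 0.28. SERP2, an endoplasmic reticulum stress gene (2.34 ± 0.34), and ALDH2, a mitochondrial aldehyde dehydrogenase gene (2.17 ± 0.39), gained regions within the gene. At the start of ALPK2, which encodes an alpha-type protein kinase, accessibility rose by 2.14 ± 0.27. FBLN1, a gene for an extracellular matrix protein, gained an internal region (2.10 ± 0.37), and LRATD2 one 7064 bp away (2.03 ± 0.32). All 10 regions were higher on each of days 3, 4 and 5 than on day 1 in every WT library, and the plot by day shows 9 of them.

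Chosen in the same way, the 10 largest losses were mostly regions that the day 0 table also holds. Of these, 9 overlapped a day 0 region, none lay at a start on record here and 4 lay within 2 kb of a 3′ end. The S100B region covered an end of S100B, a gene with no start or strand on record here. Inside RAB26, a small GTPase gene, the region fell from 9.34 and 9.58 CPM to 2.38 and 2.71 CPM (−1.89 ± 0.27, adjusted p = 3.005e-07). ZNF629, a zinc-finger gene, lost a region 229 bp inside one of its ends, from 11.3 and 13.5 CPM to 3.87 and 2.89 CPM (−1.84 ± 0.23). The MYOF region, inside the gene for a membrane repair protein, was the only one of the 10 without day 0 overlap. It dipped to 1.64 and 1.27 CPM from 4.94 and 5.60 CPM, and stood at 4.93 and 4.40 CPM on day 3.
Others lay beside housekeeping genes. A region 1623 bp from EEF1A1, which encodes a translation elongation factor, fell by 1.72 ± 0.23 on the log2 scale. One 228 bp from KRI1, a ribosome biogenesis gene, fell by 1.66 ± 0.22. Other losses were at ACP4 (−1.66 ± 0.25), MMP24OS (−1.57 ± 0.22), S100B (−1.51 ± 0.28) and C6orf89 (−1.49 ± 0.29). C6orf89 was the only one of these 20 regions to miss the threshold in any refit, at −0.91 without day 2 b.

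**Figure D2:**
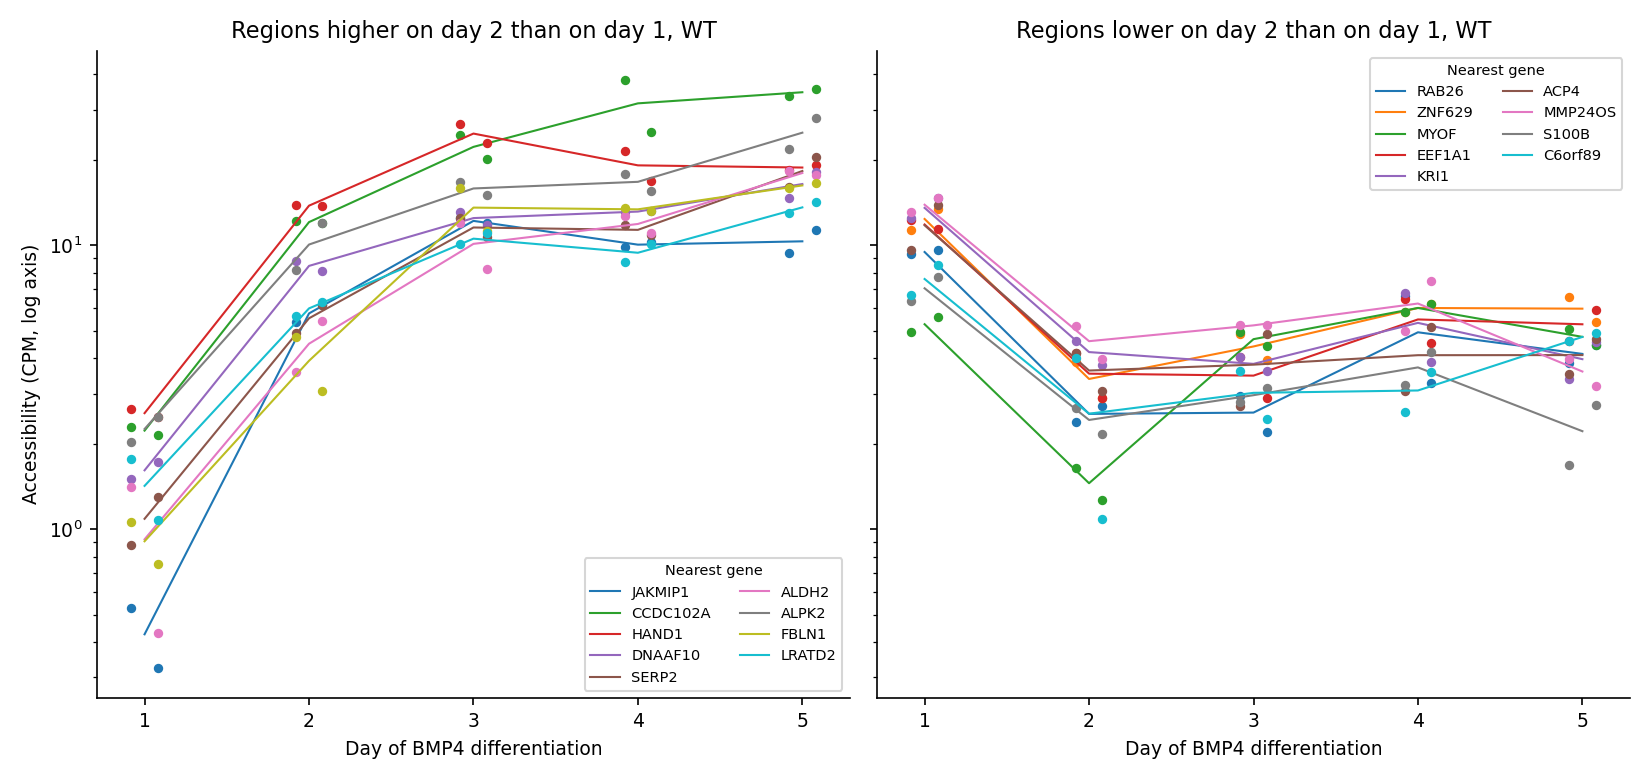
Accessibility in CPM (log axis) of 9 of the 10 largest gains (left) and 9 of the 10 largest losses (right) at or above median abundance, by day in WT; points are single libraries and lines join their means. The HAND1 region climbed from 2.65 and 2.48 CPM on day 1 to 13.8 and 13.7 on day 2, and the RAB26 region dropped from 9.34 and 9.58 to 2.38 and 2.71.

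For the gene groups, the regions closest to each gene, out to 50 kb from its ends, were added up, and each sum was tested as one value, in CPM of all gene-linked counts. A nearby region is not shown to act on the gene, and in bulk libraries fewer cells of a type and less opening per cell cannot be told apart. Of 30254 genes with linked regions, 3280 rose (10.8%) and 2716 fell (8.98%), and the median gene changed by −0.01. The median gene had 3 linked regions, while the 22 tested lateral plate and cardiac genes held 349. The shares over all genes are thus not a like measure for every list. Leaving out day 1 a, day 2 a or day 2 b lowered the number of genes called from 5996 to 2824, 3182 and 2974.

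Among BMP targets and feedback genes the calls were gains. Of 24 tested genes 10 rose, none fell and 14 were not called, with a list median of 0.17. Among the inhibitory SMADs, SMAD7 went from 106 and 111 CPM to 171 and 197 CPM, and SMAD6 from 133 and 142 CPM to 182 and 180 CPM. The day 2 libraries were above the day 1 libraries in both, and the log2 fold changes were 0.76 ± 0.06 (adjusted p = 2.794e-14) and 0.40 ± 0.06. SMAD7 had 12 of 21 linked regions called higher. The strongest lay inside the gene at chr18:48948557-48948757, 676 bp downstream of a start. It rose from 5.47 and 5.92 CPM to 21.0 and 23.0 CPM (1.95 ± 0.18, adjusted p = 2.451e-14).

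ID genes and a receptor decoy gene rose as well. ID3 rose from 73.2 and 75.2 CPM to 107 and 113 CPM (0.57 ± 0.07, adjusted p = 1.022e-07), without overlap. ID4 rose by 0.52 ± 0.07, ID1 by 0.39 ± 0.07 and BAMBI, which encodes a pseudoreceptor that dampens TGF-beta family signals, by 0.43 ± 0.07. Of the ligands, BMP7 rose by 0.59 ± 0.16. MSX2, a homeobox target of BMP, was not called over its 25 linked regions (0.13 ± 0.06, adjusted p = 0.121). Its promoter region alone rose from 14.02 and 12.7 CPM to 20.1 and 22.2 CPM (0.65 ± 0.15).
Called without exception when any of the 4 WT libraries was left out were 7 of the 10, namely BAMBI, BMP4, ID1, ID3, ID4, SMAD6 and SMAD7. BMP7 lost the call without day 1 a and without day 2 b. Counting only regions within 1 kb of a gene end turned ID1 to −0.01, and its strongest called region lay 1998 bp away.

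Promoter regions of this list moved further than the whole neighbourhoods. Of 14 list promoters with a tested region, 10 rose and none fell, with a median of 0.55. Over all 12254 promoters 11.7% rose, 1.17% fell and the median was 0.17. In the most abundant 10% of tested regions 17.7% rose and 0.408% fell, and the part of abundance in these promoter gains was not tested. The SMAD6 promoter printed above rose from 18.5 and 21.2 CPM to 37.0 and 33.6 CPM (0.84 ± 0.14, adjusted p = 1.091e-05). The promoter of SMAD9, a receptor-activated SMAD, rose from 7.49 and 9.15 CPM to 14.6 and 16.1 CPM (0.89 ± 0.19), and that of ID3 from 20.2 and 21.4 CPM to 28.4 and 33.1 CPM (0.56 ± 0.14). All 3 were higher in both day 2 libraries than in both day 1 libraries. The ubiquitin ligase genes SMURF1 (0.70 ± 0.22) and SMURF2 (0.69 ± 0.19), which target SMADs and receptors, also gained promoter accessibility. Over all linked regions SMAD9 (0.05 ± 0.09), SMURF1 (0.35 ± 0.15) and SMURF2 (0.19 ± 0.11) were not called.

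Nodal and Activin genes moved in both directions. Of 17 tested genes 7 rose and 2 fell, with a median of 0.17. SKIL, a SMAD corepressor (0.53 ± 0.08), SMAD3, a signal transducer (0.53 ± 0.08), and the receptor gene ACVR2A (0.50 ± 0.11) rose. LEFTY2, a secreted Nodal inhibitor, fell from 50.6 and 52.4 CPM to 40.2 and 40.5 CPM (−0.35 ± 0.10, adjusted p = 0.00671), and PMEPA1, a negative regulator of SMAD signalling, fell by 0.37 ± 0.12. The PMEPA1 promoter went the other way, from 25.3 and 25.1 CPM to 37.8 and 38.3 CPM (0.59 ± 0.13). NODAL itself had 77.8 and 81.5 CPM on day 1 and 94.0 and 87.6 CPM on day 2 and missed the threshold (0.19 ± 0.08, adjusted p = 0.0662). LEFTY1 overlapped between days (−0.06 ± 0.10). Both falls missed the threshold without day 2 a, and that of PMEPA1 also without day 1 a, and the higher count was 4, 3, 5 and 3 without day 1 a, day 1 b, day 2 a and day 2 b.

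FGF and ERK genes gave more gains than losses. Of 22 tested genes 10 rose, 1 fell and 11 were not called, with a median of 0.19. ETV5, an ETS factor induced by ERK, rose from 87.8 and 91.1 CPM to 132 and 130 CPM (0.56 ± 0.07, adjusted p = 1.004e-08). The receptor gene FGFR2 (0.55 ± 0.06) and the feedback inhibitor gene SPRY4 (0.48 ± 0.08) rose as well. KLB, a coreceptor gene for endocrine FGFs, was the loss (−0.43 ± 0.12). Without day 2 b the higher count was 6, and the abundance offsets gave 7 higher and 3 lower.

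In the other signalling lists the calls were gains. WNT targets had 4 of 22 higher, led by AXIN2, a feedback inhibitor of the pathway, which went from 159 and 149 CPM to 198 and 193 CPM (0.34 ± 0.06). The receptor gene FZD7 (0.34 ± 0.07) and the transcription factor gene TCF7L2 (0.29 ± 0.08) followed. Notch genes had 4 of 18 higher, among them the effector HES1 (0.49 ± 0.07), the ligand JAG1 (0.42 ± 0.06) and HES4 (0.24 ± 0.07). Retinoic acid genes had 5 of 16 higher, including RDH10, an enzyme of retinal synthesis (0.44 ± 0.12), RXRB, a retinoid X receptor gene (0.29 ± 0.09), and CYP26A1, which degrades retinoic acid (0.28 ± 0.08). None of these 3 lists had a loss, and the WNT and Notch medians were 0.10 and 0.09. Of the linked regions 8.18% rose for WNT, 7.22% for Notch and 7.11% for retinoic acid, against 6.29% of all tested regions. With the abundance offsets WNT had 3 higher and 1 lower and Notch 2 higher and 1 lower, and WNT also had 1 lower without day 2 a. None of the 5 retinoic acid genes kept its call throughout the single-library omissions, and 1 was left with the abundance offsets. The WNT count fell to 2 without day 1 b and without day 2 b, and the Notch count to 2 without day 1 b and without day 2 a.

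Genes of the primitive streak and nascent mesoderm gained accessibility where they changed. Of 27 tested genes 8 rose and none fell, with a median of 0.13. Total counts and the abundance offsets each gave 7 higher and 1 lower. APLNR, the apelin receptor gene of early mesoderm, rose from 17.2 and 19.0 CPM to 34.6 and 38.9 CPM (1.02 ± 0.20, adjusted p = 0.00129), and all 3 of its linked regions rose. EOMES, a T-box factor of the streak, went from 114 and 108 CPM to 146 and 143 CPM (0.38 ± 0.06). MESP1, a factor of cardiac mesoderm, rose from 68.9 and 76.3 CPM to 94.0 and 96.3 CPM (0.39 ± 0.08). MESP2 (0.67 ± 0.20) and CER1, a secreted inhibitor of Nodal and BMP (0.46 ± 0.15), each rested on 1 region. Counting only regions within 1 kb of a gene end left 2 of 26 tested genes higher and none lower. EOMES, MESP1 and WNT3 lost their calls there, and WNT3 also with the abundance offsets.
TBXT, the T-box gene that defines the streak, had 1 linked region, at 5.02 and 3.68 CPM on day 1 and 4.14 and 3.16 CPM on day 2, which overlap (−0.25 ± 0.27). MIXL1, a homeobox factor of mesendoderm, was not called (0.19 ± 0.13, adjusted p = 0.324). The 4 genes called in every single-library omission were APLNR, EOMES, MESP1 and WNT3. The list count was 5, 5, 8 and 4 without day 1 a, day 1 b, day 2 a and day 2 b.

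Lateral plate and cardiac genes had 5 of 22 higher and none lower, with a median of 0.04. Of their 349 linked regions 6.59% rose, near the 6.29% of all tested regions, and 0.86% fell, against 4.02%. Total counts gave 3 genes higher and 1 lower, and the abundance offsets 2 higher and 1 lower. HAND1 rose from 175 and 170 CPM to 218 and 238 CPM (0.40 ± 0.06, adjusted p = 7.888e-06), with 8 of 37 linked regions higher. GATA4, a cardiac and endodermal factor, rose by 0.38 ± 0.07 and TBX3 by 0.26 ± 0.07. GATA6, a related factor, overlapped between days as a whole (0.11 ± 0.09), while its promoter rose from 11.1 and 11.95 CPM to 18.0 and 19.5 CPM (0.70 ± 0.16). The count was 2 without day 1 b and without day 2 b, and 3 without day 2 a.

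Amnion and trophoblast genes had 7 of 25 higher and none lower, with a median of 0.13. VTCN1, a surface protein gene of the B7 family used as an amnion marker, moved from 6.21 and 6.76 CPM to 10.2 and 14.8 CPM (0.93 ± 0.20, adjusted p = 8.037e-04). Its promoter, printed above, was nearly closed on day 1 at 0.617 and 0.323 CPM and held 1.93 and 4.70 CPM on day 2 (2.68 ± 0.47, adjusted p = 2.878e-05). On day 5 it stood at 6.59 and 7.19 CPM. TEAD1, a factor of the Hippo pathway, rose by 0.47 ± 0.07. GATA3 (0.17 ± 0.14) and TFAP2A (0.05 ± 0.10), defining factors of this lineage, were not called, and CDX2 was called at a small change (0.20 ± 0.06, adjusted p = 0.0135). CDX2 lost its call in 3 of the 4 single-library omissions and turned to −0.01 with regions within 1 kb. VTCN1 lost its call without day 2 b, where the list count was 4.

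Endoderm genes gave calls in both directions, 3 higher and 2 lower of 13. AFP, a fetal serum protein gene (0.51 ± 0.19), GATA4 and CER1 rose, and the liver genes SERPINA1 (−0.43 ± 0.14) and APOA1 (−0.41 ± 0.12) fell. SOX17, which defines endoderm, read 43.2 and 45.3 CPM on day 1 and 45.1 and 40.5 CPM on day 2. Of these 5 genes, GATA4 alone was called whichever library was left out.

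Pluripotency genes moved in both directions. Of 30 core and primed genes 6 rose and 5 fell, with a median of −0.05. Of their 312 linked regions 28 fell (8.97%, against 4.02% of all tested regions) and 22 rose (7.05%, against 6.29%). Among the losses were regions near L1TD1 (−3.04 ± 0.60) and CRIPTO (−2.94 ± 0.52), both at few CPM. Neither gene was called over all its regions. POU5F1, the gene for OCT4, fell from 36.6 and 44.1 CPM to 30.8 and 29.99 CPM, with no overlap (−0.40 ± 0.11, adjusted p = 0.0068). Its called region with the largest change, chr6:31169556-31169756 inside the gene, went the other way, from 0.970 and 1.18 CPM to 2.38 and 3.07 CPM (1.32 ± 0.40). ESRG, a long noncoding RNA gene of pluripotent cells, fell from 46.1 and 40.6 CPM to 23.1 and 28.2 CPM (−0.77 ± 0.12), and LCK, a kinase gene open in these cells, fell by 0.53 ± 0.11. NANOG at 19.3 and 20.3 CPM on day 1 and 17.4 and 19.3 CPM on day 2 overlapped, as did SOX2 at 162 and 157 CPM and then 155 and 176 CPM. PRDM14 was not called either over all its regions (−0.07 ± 0.07), while a region 18 bp outside the gene fell by 0.53 ± 0.17.
The gains included ETV5, which the FGF list also holds, and FGF2 (0.29 ± 0.10). The abundance offsets left 1 gene higher and 7 lower. Without day 1 a, day 1 b, day 2 a and day 2 b the counts were 4, 2, 4 and 1 higher and 4, 4, 2 and 4 lower. POU5F1 lost its call without day 1 b, day 2 a or day 2 b, and DNMT3B and ESRG were the losses called throughout. The median turned to 0.02 without day 2 a and to 0.07 for regions within 1 kb. Naive-state genes had 2 of 12 higher, KLF5 (0.47 ± 0.08) and TBX3, and none lower. The VRTN promoter printed above closed from 8.64 and 9.37 CPM to 5.50 and 5.06 CPM (−0.76 ± 0.22, adjusted p = 0.0156), while VRTN over all its regions was not called (0.11 ± 0.07).

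**Figure D3:**
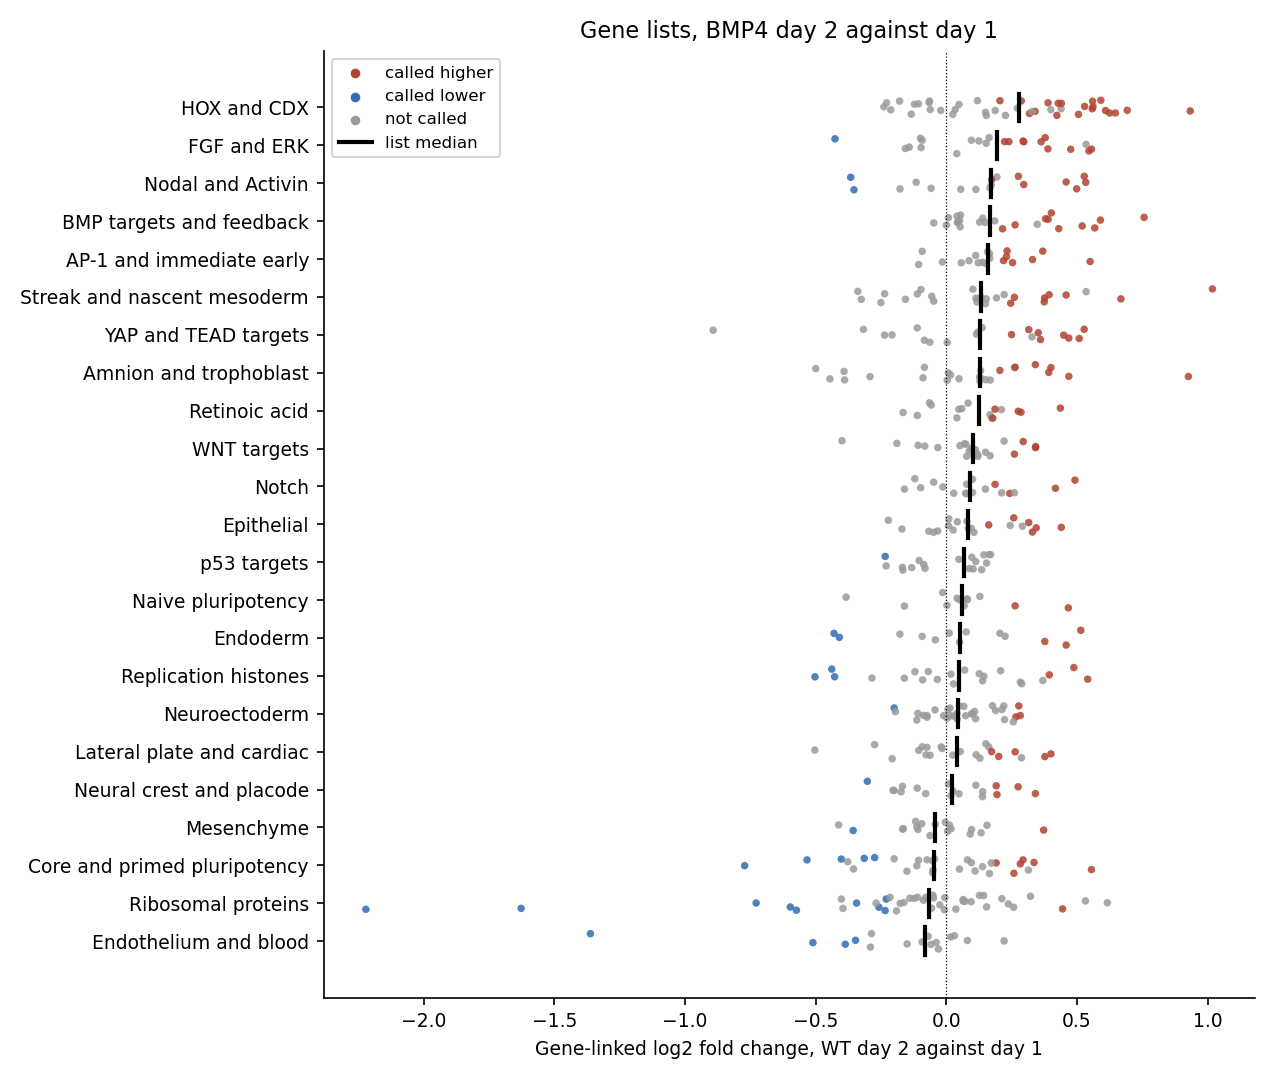
Gene-linked log2 fold change of WT day 2 against day 1 for each tested gene of 23 lists, with list medians as black bars; red and blue points passed the test. HOX and CDX genes had the highest median, 0.28, and endothelial and blood genes the lowest, −0.08.

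HOX and CDX genes, which encode the homeobox factors of position along the body axis, had the highest median of all lists. Of 42 tested genes 19 rose (18 of the 39 HOX genes, and CDX2) and none fell, with a median of 0.28. The clusters differed in their counts: 5 of 11 HOXA, 6 of 10 HOXB, 6 of 9 HOXC and 1 of 9 HOXD genes rose, with medians of 0.27, 0.39, 0.44 and −0.06. The difference between clusters was not tested. HOXA7 had 1 region, at its promoter, and moved from 3.84 and 1.90 CPM to 5.26 and 6.12 CPM (0.93 ± 0.29). HOXD8 rose from 12.2 and 9.14 CPM to 18.2 and 16.6 CPM (0.69 ± 0.17), and HOXC8 from 12.6 and 9.73 CPM to 16.6 and 18.9 CPM (0.65 ± 0.18). HOXB1, an anterior gene, had 21.3 and 22.8 CPM on day 1 and 32.8 and 32.0 CPM on day 2 (0.56 ± 0.12), and its promoter rose by 0.84 ± 0.21.
Levels were low at most of these genes, and the calls moved with single libraries. The list count was 12, 9, 13 and 6 without day 1 a, day 1 b, day 2 a and day 2 b, and only HOXB1 and HOXB8 were called in all 4. The median stayed between 0.19 and 0.36 in these omissions. KO and DATG showed the same list at medians of 0.38 and 0.35, and from day 3 to day 5 in WT it was −0.18.

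**Figure D4:**
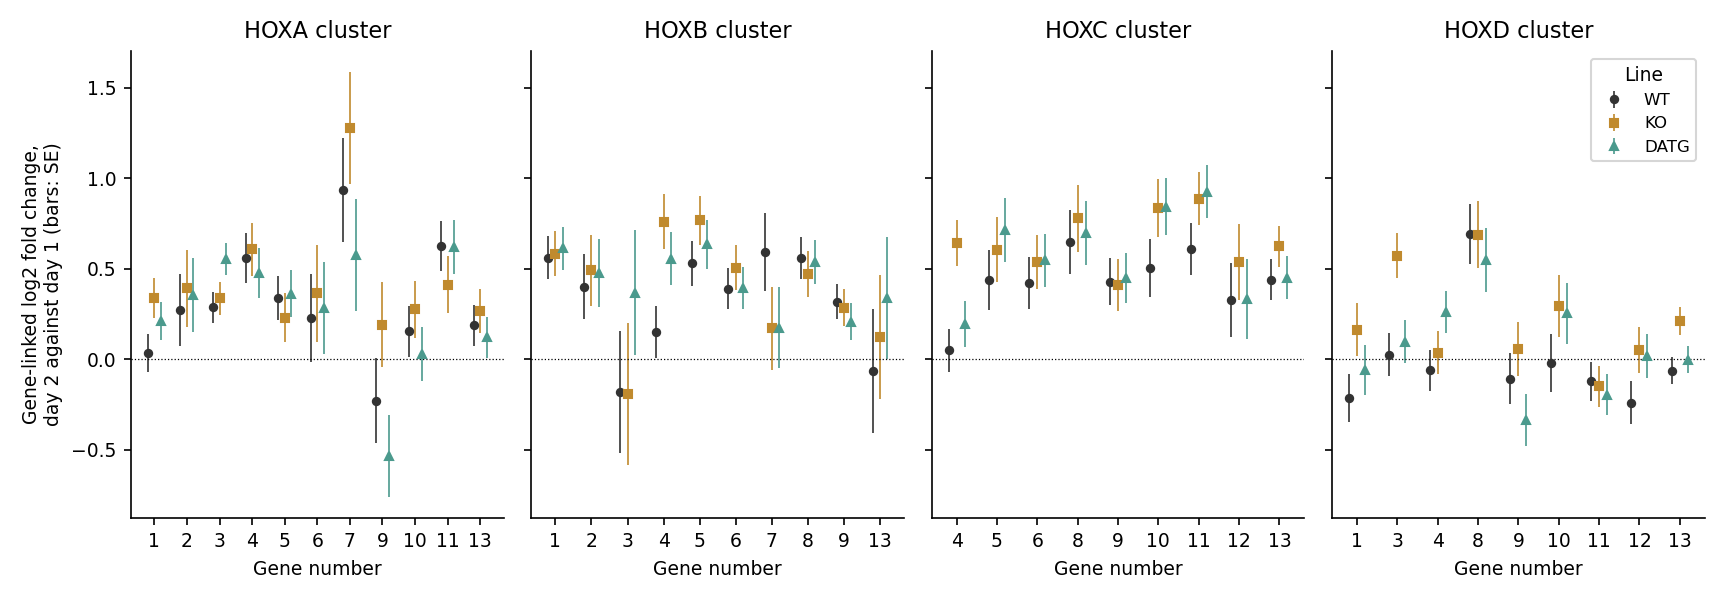
Gene-linked log2 fold change from day 1 to day 2 for each HOX gene in WT, KO and DATG, by cluster, with SE bars. HOXC medians were 0.44 in WT, 0.62 in KO and 0.55 in DATG, and HOXD medians −0.06, 0.16 and 0.02.

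Targets of YAP and TEAD, the factors of the Hippo pathway, had 8 of 20 higher and none lower. Total counts and the abundance offsets each gave 7 higher and 1 lower, and regions within 1 kb gave 8 higher and 1 lower. Of 160 linked regions 32 rose and 3 fell. A region 18645 bp from CCN2 fell by 1.65 ± 0.35, and the AXL promoter fell by 0.52 ± 0.15. PTPN14 (0.53 ± 0.10) and AMOTL2 (0.51 ± 0.05), both inhibitors of YAP, and TEAD1 led. AMOTL2 went from 197 and 204 CPM to 291 and 280 CPM, and 6 of the 8 genes kept the call whichever library was left out. AP-1 and immediate early genes had 7 of 19 higher, led by DUSP1, a phosphatase gene (0.55 ± 0.08), KLF6 (0.37 ± 0.07) and JUN (0.33 ± 0.08). Of their 184 linked regions 8.70% rose, against 6.29% of all tested regions, and 7.07% fell, against 4.02%. The called JUN region with the largest change went the other way (−1.155 ± 0.31). FOS rose by 0.23 ± 0.06 in sum, from 178 and 186 CPM to 212 and 217 CPM, with 4 regions higher and 4 lower. It turned to −0.08 for regions within 1 kb and was not called with the abundance offsets or without day 1 a. With those offsets the AP-1 list had 3 higher and 1 lower, and without day 2 b it had 4 higher. Of p53 targets, DDB2, a DNA repair gene, fell (−0.23 ± 0.09) among 18 tested, and its call was lost in each single-library omission. Of the 85 regions linked to p53 targets 8 fell (9.41%, against 4.02% of all tested regions) and 3 rose (3.53%, against 6.29%).

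Epithelial genes had 6 of 21 higher and none lower, with a median of 0.08. Of their 175 linked regions 5.14% rose, against 6.29% of all tested regions, and 1.14% fell, against 4.02%. KRT19 rose from 72.0 and 75.1 CPM to 95.3 and 105 CPM (0.44 ± 0.08), ESRP1, an epithelial splicing regulator, by 0.34 ± 0.09 and CLDN7, a tight junction gene, by 0.33 ± 0.09. KRT18 was called at 0.26 ± 0.07 and lost that call without day 1 a or day 2 b. KRT19 alone kept its call in all 4 omissions, where the list count was 1, 5, 4 and 2. The abundance offsets gave 3 higher and 1 lower, and total counts 5 higher and 1 lower. The promoter of TJP1, a tight junction scaffold gene, rose from 10.4 and 9.80 CPM to 25.1 and 21.3 CPM (1.20 ± 0.16, adjusted p = 2.498e-08). That promoter region was not among the regions linked to TJP1. The sum over the linked regions was not called (0.08 ± 0.08), and the strongest of them rose by 1.02 ± 0.31. Mesenchymal genes had MMP2, a matrix protease gene, higher (0.37 ± 0.10) and CDH11, a mesenchymal cadherin gene, lower (−0.36 ± 0.09) among 19. ZEB2, a repressor of epithelial genes, read 11.9 and 9.14 CPM and then 10.8 and 10.5 CPM.

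Endothelial and blood genes had losses and no gain. Of 16 tested genes 4 fell and none rose, with a median of −0.08. Of their 116 linked regions 6 fell (5.17%, near the 4.02% of all tested regions) and 0 rose (0%, against 6.29%). CDH5, the endothelial cadherin gene, had 1 region that went from 4.63 and 5.46 CPM to 2.07 and 1.78 CPM (−1.36 ± 0.31, adjusted p = 0.00125). ERG (−0.51 ± 0.12), TAL1 (−0.39 ± 0.08) and FLI1 (−0.35 ± 0.09), transcription factors of these lineages, fell too, and all 4 calls held in each single-library omission. The same list in KO and DATG had medians of 0.01 and −0.06. TAL1 fell from 85.1 and 76.9 CPM to 59.9 and 64.5 CPM in WT, while its change was 0.01 in KO and −0.13 in DATG, neither called. The difference between lines was not called for TAL1.

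Ectodermal lists had calls in both directions, with medians of 0.05 for neuroectoderm and 0.02 for neural crest and placode. Of their linked regions 3.77% and 5.74% rose, against 6.29% of all tested regions, and 1.74% and 1.44% fell, against 4.02%. Neuroectoderm had OTX2 (0.28 ± 0.11), ZNF521 (0.28 ± 0.10) and ZIC5 (0.27 ± 0.08) higher and LHX2 (−0.20 ± 0.07) lower among 32, and PAX6 was at 51.5 and 48.5 CPM and then 51.3 and 49.1 CPM. None of these 4 calls held in all 4 omissions. Neural crest and placode genes had 4 of 18 higher, led by TFAP2B (0.34 ± 0.08), SIX4 (0.27 ± 0.08) and SOX9 (0.19 ± 0.07), and SOX10 lower (−0.30 ± 0.10). In the omissions TFAP2B alone kept its call.

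Ribosomal protein genes, listed as a control, had 1 of 42 higher and 9 lower, with a median of −0.07. RPLP0 fell from 7.78 and 5.34 CPM to 1.28 and 1.58 CPM (−2.22 ± 0.34, adjusted p = 2.643e-06), in a single region 684 bp outside the gene and within 2 kb of its 3′ end. RPS18, also with 1 region, fell by 1.63 ± 0.37, and RPL18 by 0.73 ± 0.25. Their promoters did not share this, with 1 of 27 higher (RPL14, 0.48 ± 0.14), none lower and a median of 0.03. RPL18 lost its call in each single-library omission, where the lower count ran from 5 to 6. Replication-dependent histone genes had H2AC6 (0.54 ± 0.13), H2AC8 (0.49 ± 0.11) and H4C8 (0.39 ± 0.13) higher and H1-3 (−0.50 ± 0.11), H1-5 (−0.44 ± 0.15) and H4C1 (−0.43 ± 0.13) lower among 22. These genes are clustered and near-identical, so reads may be shared among them.

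Promoters that rose and fell differed in base composition. The median GC content was 65.3% over all 12254 promoters with a tested region, 67.3% over the 1439 that rose and 60.0% over the 143 that fell. Each promoter spans 250 bases before and 50 after the start, and both strands were searched for 20 motifs. The BMP SMAD motif GGCGCC occurred in 30.8% of all promoters, 36.2% of those that rose and 5.59% of those that fell. This motif is made of G and C alone, and no match was adjusted for GC content. CCAAT, bound by NF-Y, occurred in 35.1%, 44.5% and 39.2%, and CAGGTG, bound by ZEB and SNAI repressors, in 19.7%, 16.5% and 33.6%. The GATA motif AGATAA (5.13%, 5.56% and 4.90%) and the TEAD motif GGAATG (11.4%, 10.2% and 13.99%) were also searched. In the 250 bases shown for SMAD6, SMAD9 and ID3 no GGCGCC was found. Each held the TFAP2 motif GCCNNNGGC, though the match at SMAD9 lay outside the counted region. That motif occurred in 33.0% of all promoters, 37.3% of those that rose and 24.5% of those that fell.

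The same step was set beside the 2 edited lines, each with 2 libraries per day. In KO 4.09% of regions rose and 2.87% fell, and in DATG 4.77% and 3.55%. Of the regions that rose in WT, 23.8% were called the same way in KO, which is 36.7% of the KO list, and 35.8% in DATG, which is 47.2% of the DATG list. Of those that fell, 25.2% were called in KO (35.3% of its list) and 33.3% in DATG (37.8%). The regions higher in WT, chosen in WT, had a median change of 0.43 in KO and 0.56 in DATG, and the lower ones −0.57 and −0.64. The direction matched for 87.0% of higher regions in KO and 96.6% in DATG, against 68.7% and 73.6% of all tested regions.

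A test of the difference itself called almost nothing. KO minus WT gave 1 region (0.000704%) and DATG minus WT 0 (0%), and over genes the counts were 1 (0.00331%) and 0 (0%). Of 142083 tested regions, unadjusted p-values under 0.05 numbered 10870 for KO minus WT and 6190 for DATG minus WT. The WT step itself had 36161. An unadjusted cut at 0.05 passes a share of about 0.05 of regions where nothing differs. The KO minus WT count lay above that share of the tested regions and the DATG minus WT count below it. Neither count is read as differences at given regions. With 2 libraries per line and day, the lack of calls does not show that the lines changed alike. DESeq2 called 0 regions in both. At the HAND1 region KO read 2.96 and 1.27 CPM on day 1 and 2.73 and 5.47 CPM on day 2 (0.93 ± 0.44), and DATG went from 3.13 and 2.72 CPM to 13.4 and 5.93 CPM (1.70 ± 0.32). The DNAAF10 region went from 1.04 and 2.07 CPM to 2.73 and 1.88 CPM in KO (0.58 ± 0.43), and its difference from WT was not called (adjusted p = 0.322). The RAB26 region fell in KO (−2.29 ± 0.29) and in DATG (−1.89 ± 0.25) too.

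**Figure D5:**
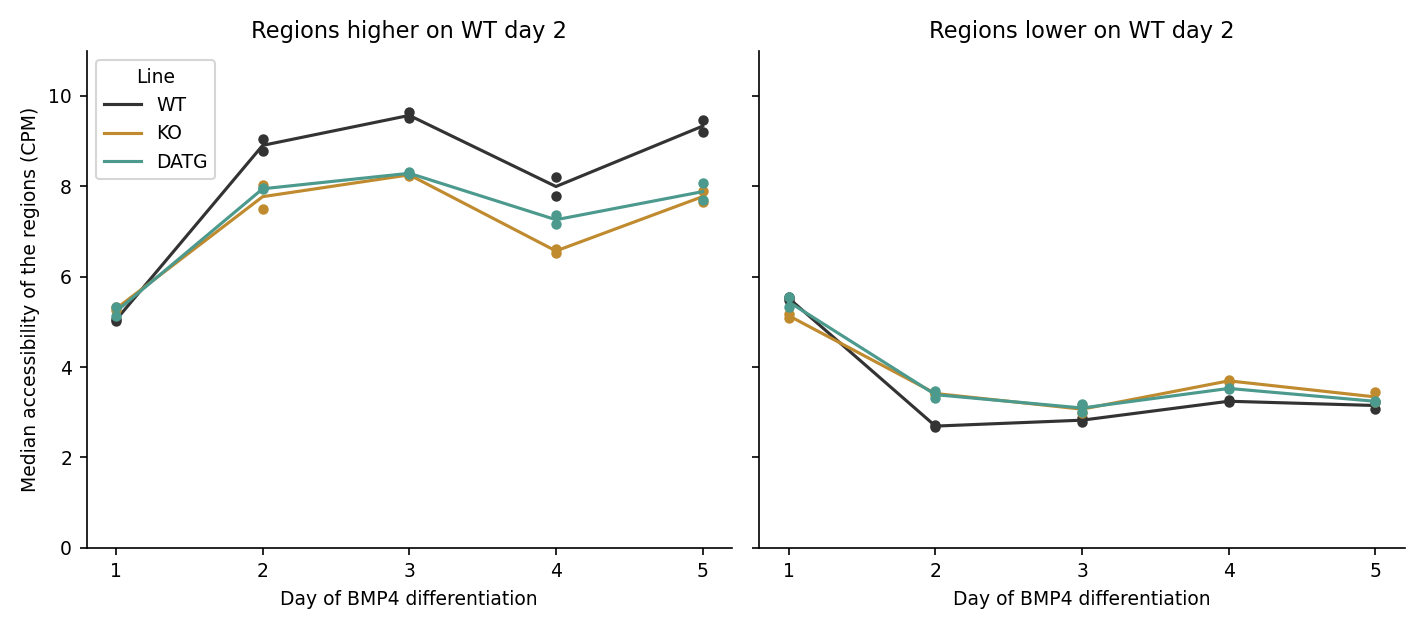
Median accessibility in CPM of the 8938 regions higher (left) and 5718 regions lower (right) on WT day 2, by day and line; points are libraries and lines their means. In WT the higher regions went from 5.03 and 5.06 CPM on day 1 to 8.77 and 9.04 on day 2 and 9.20 and 9.47 on day 5.

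Later in the WT time course most of this change stood. The median of the higher regions was 9.64 and 9.501 CPM on day 3, and 8.21 and 7.78 CPM on day 4. The lower regions went from 5.55 and 5.49 CPM on day 1 to 2.68 and 2.71 CPM on day 2 and were at 3.22 and 3.08 CPM on day 5. Day 5 against day 3, which shares no library with the first step, had 9255 higher regions (6.51%) and 2887 lower (2.03%). Of the regions that rose on day 2, 9.86% rose again and 7.90% fell, and these made up 24.5% of all that fell in the later step. Of the regions that fell on day 2, 5.47% rose later and 0.612% fell further. EOMES (−0.36), MESP1 (−0.34) and AXIN2 (−0.32), all higher on day 2, were called lower from day 3 to day 5, and KRT18 rose further (0.64).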

How the data were processed

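Accessible regions of 201 bp and their read counts per library were deposited by the authors as raw counts. Per the submitters' processing notes MACS2 and GRCh38 were used. The sources used here give no aligner, peak settings, duplicate removal or transposase shift. Counts of the 30 BMP4 libraries were scaled by TMM, filtered with filterByExpr and fitted with edgeR 4.0.16 (R 4.3.3, quasi-likelihood, robust) with 15 group means, so all groups share the spread. SE is the log2 fold change divided by the root of F. Replicates a and b differed by more than counting noise (chi-square per degree of freedom 1.22 and 1.23). Genes and promoters came from RefSeq GRCh38.p14, and starts on chromosome 8 were not used here. Some other genes had no start or strand on record, so their starts and 3′ ends were not used either. Alternatives were total counts, no filter, a replicate block, DESeq2 1.42.0, only the 4 WT libraries, regions within 1 kb, leaving out each library, and loess abundance offsets (span 0.3, added after seeing the data). Named regions are the 10 called in each direction with the largest fold change, among regions of at least median abundance whose days do not overlap, near a protein-coding gene, 1 per gene. Of these, 1 in each direction and 1 list gene are not reported here. Named genes are fixed anchor genes and the top 3 calls per list and direction. Other genes, the promoters among them, were chosen after their values were seen. Members and gene lists were chosen with earlier results of these data known.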

Additional observations from a re-analysis of the deposited data

Results flagged for a closer look

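The change from day 1 to day 2 differed between KO and WT at 1 region by the test of the difference itself. The region, chr14:102057597-102057797 on GRCh38, lies 1154 bp outside DYNC1H1, the gene for the cytoplasmic dynein heavy chain, and does not overlap a day 0 region. WT held 2.47 and 1.72 CPM on day 1 and 4.01 and 6.15 CPM on day 2, KO 2.66 and 3.504 CPM and then 1.02 and 0.684 CPM, and DATG 1.99 and 2.61 CPM and then 2.48 and 2.03 CPM. Both WT day 2 libraries were above both WT day 1 libraries, and both KO day 2 libraries were below both KO day 1 libraries. KO minus WT was −3.05 on the log2 scale (adjusted p = 0.0173 in edgeR, 2 libraries per line and day). The number of regions called for this difference was 0 in 6 of the fits that left out a library, 5 without WT day 2 a, and 0 with DESeq2.

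The gene-linked sum of LINC01900, a long noncoding RNA gene with 11 regions, also changed by different amounts in KO and WT. WT went from 28.9 and 29.9 CPM to 57.7 and 66.1 CPM, KO from 26.9 and 25.7 CPM to 28.3 and 29.2 CPM, and DATG from 27.2 and 24.5 CPM to 42.8 and 32.3 CPM. Both WT day 2 libraries were above every KO and DATG day 2 library. KO minus WT was −0.94 (adjusted p = 0.0169 in edgeR).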

How the results depend on the processing

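The 14656 regions called in WT became 3690 with DESeq2 and 5944 at over 2-fold, and ran from 5182 to 8685 when a library was left out. The 5996 genes called became 2853 with DESeq2 and 2741 for regions within 1 kb, and ran from 2824 to 4124 without a library. KO minus WT had 0 regions with DESeq2 and 0 to 5 without a library. Day 5 against day 3 had 3954 with DESeq2 and 5693 to 9253 without a library, the lowest without day 5 b. With regions within 1 kb ID1 was at −0.015, CDX2 at −0.0087 and FOS at −0.077. A replicate block on the letters a and b gave 15548 regions and 6235 genes. The letters share no stated source, and a-minus-b differences of WT day 1 and day 2 correlated at −0.084. Of the 20 regions chosen by size of change, all kept their call and direction in each refit run, except C6orf89 without day 2 b. The cause of these changes was not tested. A refit without a library leaves 1 sample on that day, assumed to vary like the other groups. Depth limits low regions most: the shallowest of the 4 libraries held 5449494 counts.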
